A study of Mus musculus with 4 samples.

Results

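In all, 8 genes of cholesterol and fatty acid synthesis were followed through the cells of the mouse aorta. They were Hmgcs1, Idi1, Fdft1, Sqle, Cyp51, Insig1, Scd1 and Fasn, taken by their Ensembl identifiers from the 27734 genes shared by all 4 libraries. The 8 were chosen by their measured levels in these same libraries, chiefly the difference between cKO and control smooth muscle of the descending aorta, so their pattern is given as a description and no p-value was computed. The study profiled dissociated cells of the whole aortic wall by droplet 5′ RNA sequencing, in which each captured RNA molecule carries its own tag and is counted once as a UMI. The mice were 16 to 20 weeks old, and every one carried the driver CNC-SMC-Cre and the R26-tdT reporter. Control mice were CNC-SMC-Cre;R26-tdT, and conditional knockout (cKO) mice were CNC-SMC-Cre;Smad4flox/flox;R26-tdT, with floxed alleles of Smad4, the common transducer of TGF-beta and BMP signals. The driver is named for smooth muscle of cardiac neural crest origin, so it need not act in the other cells of a library or in all smooth muscle. The aortic arch and the descending thoracic aorta were sampled for each genotype, giving 4 libraries, 1 per group, and how many mice went into each is not stated in the labels. From its title, the study addressed how the developmental origin of smooth muscle bears on aortic disease.

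Cholesterol is built from acetyl-CoA through mevalonate, isoprenoids and squalene. When sterol in the endoplasmic reticulum runs low, the SCAP protein escorts the transcription factor SREBP2 to the Golgi, where it is cut free to switch on nearly every enzyme of the route. The INSIG proteins hold SCAP back when sterol is plentiful, and the related factor SREBP1 drives fatty acid synthesis, most strongly in liver and fat. In the aorta, smooth muscle cells are exposed to lipoproteins and balance uptake, synthesis and export of sterol.

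On mouse build GRCm38.p6 (mm10), Hmgcs1 (ENSMUSG00000093930) lies at chr13:119690351-119708260 and Idi1 (ENSMUSG00000058258) at chr13:8885606-8892396. Fdft1 (ENSMUSG00000021273) lies at chr14:63145150-63181687, Sqle (ENSMUSG00000022351) at chr15:59315092-59331193 and Cyp51 (ENSMUSG00000001467) at chr5:4080674-4104697. Insig1 (ENSMUSG00000045294) lies at chr5:28071412-28078662, Scd1 (ENSMUSG00000037071) at chr19:44394450-44407709 and Fasn (ENSMUSG00000025153) at chr11:120805958-120825166.

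Promoters of SREBP targets often pair a sterol regulatory element with a box for the factor NF-Y. Of the 8 genes, 5 had an entry in the RefSeq promoter table (build GRCm38.p6), from which the 250 bases before the start given in that table were read. The table's start for Fasn is that of a transcript within the gene span above. The bases just after the table's start for Hmgcs1 were not found near the start of a GENCODE transcript of that gene. Distances therefore hold for the RefSeq starts only. A box of the letters CCAAT, counted on either strand, was found in 5 of these 5 windows and in 33.8% of all 32851 windows of the same length. The sterol element core CACNCCAC was found in the windows of Hmgcs1 and Insig1 and in 5.29% of all windows, and its longer form TCACNCCAC, which contains it, in Hmgcs1 and in 1.05%. A GC box (GGGCGG, either strand) was found in 4 of the 5, all but Fasn, and in 32.7% of all windows, and an E box (CACGTG) in Insig1 and in 6.02%. The windows of the 4 genes other than Fasn are shown 5′ to 3′ on the strand of the gene, with matches to the sterol core, the CCAAT box and the E box in capitals. Hmgcs1 is read from chr13:119690101-119690350 (plus strand), Idi1 from chr13:8885356-8885605 (plus), Cyp51 from chr5:4104698-4104947 (minus) and Insig1 from chr5:28071162-28071411 (plus).
Hmgcs1: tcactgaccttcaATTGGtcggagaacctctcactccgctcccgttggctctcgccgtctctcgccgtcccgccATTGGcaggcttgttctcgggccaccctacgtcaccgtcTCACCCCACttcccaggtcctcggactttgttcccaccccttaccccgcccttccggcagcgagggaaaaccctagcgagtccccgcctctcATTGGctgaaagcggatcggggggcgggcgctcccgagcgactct
Idi1: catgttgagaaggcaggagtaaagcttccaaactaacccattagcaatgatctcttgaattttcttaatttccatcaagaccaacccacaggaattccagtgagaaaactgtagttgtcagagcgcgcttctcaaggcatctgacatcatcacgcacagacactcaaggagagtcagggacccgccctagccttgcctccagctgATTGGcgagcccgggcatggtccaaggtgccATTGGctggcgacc
Cyp51: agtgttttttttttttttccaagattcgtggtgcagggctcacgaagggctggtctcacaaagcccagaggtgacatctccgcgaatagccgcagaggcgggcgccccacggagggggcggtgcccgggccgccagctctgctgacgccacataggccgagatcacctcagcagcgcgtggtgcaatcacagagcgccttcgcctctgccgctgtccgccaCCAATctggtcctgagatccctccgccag
Insig1: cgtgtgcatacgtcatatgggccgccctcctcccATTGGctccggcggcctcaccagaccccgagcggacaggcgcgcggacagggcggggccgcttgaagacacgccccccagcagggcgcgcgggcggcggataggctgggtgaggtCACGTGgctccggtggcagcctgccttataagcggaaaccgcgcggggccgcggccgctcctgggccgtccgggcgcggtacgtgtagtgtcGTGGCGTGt
The core in Hmgcs1 begins 137 bases before the start and lies between CCAAT boxes on the opposite strand that begin 176 and 45 bases before it. In Insig1 the core begins 9 bases before the start, on the opposite strand, and the CCAAT box begins 216 bases before it. A match describes the letters only, and binding was not measured.

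After cells with under 500 genes or at least 10% mitochondrial UMIs were removed, 5842 cells were kept in the cKO arch, 8644 in the control arch, 5901 in the cKO descending and 5206 in the control descending library, with medians of 5736, 10226.5, 6575 and 7087.5 UMIs. Smooth muscle cells were taken as cells with at least 5 UMIs of Myh11, the smooth muscle myosin heavy chain, that passed the gate of no other cell type. This gave 1136, 3212, 1424 and 1153 cells in the same order, and all 6 smooth muscle markers checked were present in each library. Just outside the gate, 97, 100, 35 and 59 kept cells had exactly 4 Myh11 UMIs, and just inside it 67, 72, 33 and 39 had exactly 5. Smad4 stood at 65.8, 76.9, 90.6 and 85.4 CPM (counts per 1000000 UMIs) over all kept cells, a 5′ count that can miss the loss of exons further along the gene. The libraries also differed in ways the groups do not name. The Y-linked gene Ddx3y was counted in the control arch library (1373 UMIs) and had 0 UMIs in the other 3, while Xist was counted in all 4, so the control arch library held male cells and the others did not show any. The cKO arch matrix lists other gene models than the remaining 3. Between 216 and 263 barcodes of each library also occurred in another one. Because each group is 1 library, no difference below has a replicate check, and each interval in parentheses is a 95% interval of counting error only.

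In smooth muscle, the control descending library stood apart: all 8 genes were at their highest there, while the other 3 libraries lay closer together for most of them, Fdft1 and Scd1 being higher in the control arch than in both cKO libraries. Hmgcs1, which makes the HMG-CoA that feeds the mevalonate route, had 74.5 CPM (70.2 to 78.9) in the control descending library against 41.8 in the cKO arch, 42.6 in the control arch and 46.1 in the cKO descending library. Idi1, which converts the isoprenoid building block IPP into its reactive isomer, had 43.7 CPM (40.4 to 47.1) against 24.0, 21.2 and 26.4. The pattern was the same for both of these early steps, with 3 libraries within a narrow band and 1 above it. Fdft1, squalene synthase, was the exception in size, at 48.6 CPM (45.2 to 52.2) against 30.8, 41.0 and 37.7. Sqle, squalene epoxidase and a slow step of the route, had 31.9 CPM (29.1 to 34.9) against 17.5 (15.5 to 19.8), 14.0 (12.9 to 15.1) and 16.3 (14.4 to 18.3). Cyp51, the lanosterol demethylase, had 36.9 CPM (34.0 to 40.1) against 18.7, 17.6 and 19.9. For these later enzymes the control descending interval overlapped none of the other 3. Insig1, itself an SREBP target that then restrains SCAP, had 39.6 CPM (36.5 to 42.9) against 17.2, 20.6 and 22.5. Scd1, which desaturates stearate, had 122.7 CPM (117.2 to 128.3) against 15.4, 27.4 and 17.1. Fasn, fatty acid synthase, had 138.9 CPM (133.1 to 145.0) against 22.4, 27.6 and 32.5. The last pair thus stood much further above the other libraries than the 6 sterol genes did. CPM here are not divided by transcript length, so levels are compared between libraries and not between genes.

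**Figure D1:**
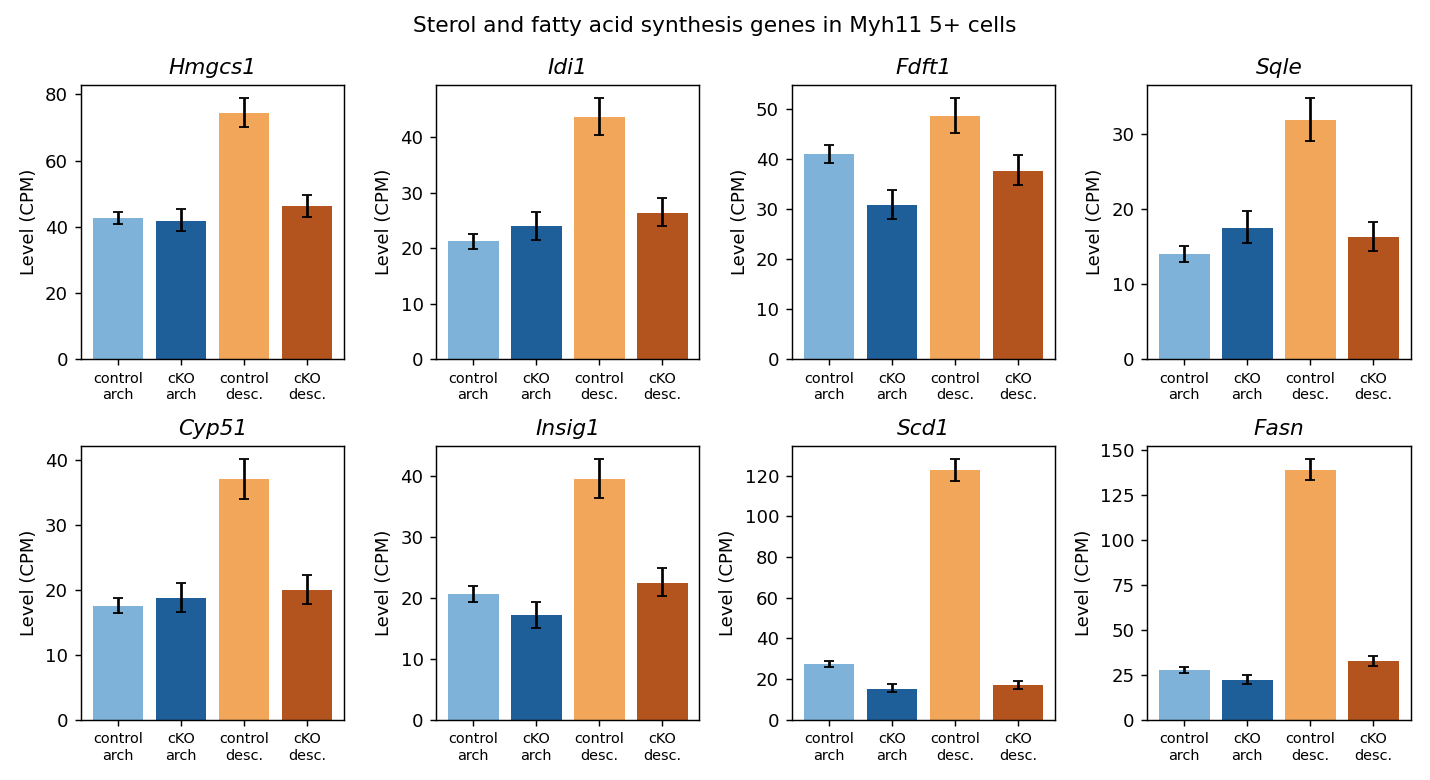
Level of each of the 8 genes in CPM (vertical axis, linear from 0) in the Myh11 5+ cells of the 4 libraries; bars are the summed UMIs of a library and lines the 95% counting interval. In every panel the control descending bar is the tallest, by a little for Fdft1 (48.6 against 41.0 CPM in the control arch) and by far for Scd1 (122.7 against 27.4 CPM).

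Within the descending aorta, smooth muscle of the cKO library had lower levels of all 8 genes than that of the control. The log2 ratio of cKO to control was -0.69 (-0.83 to -0.56) for Hmgcs1, -0.72 for Idi1, -0.37 (-0.52 to -0.21) for Fdft1, -0.97 (-1.19 to -0.75) for Sqle, -0.89 for Cyp51 and -0.81 for Insig1. Scd1 had -2.84 (-3.03 to -2.66) and Fasn -2.09 (-2.23 to -1.96). In all, 7 of the 8, every one but Fdft1, were at least 1.5-fold lower and 0 higher, where 2.96% of the 11752 genes tested (at least 50 UMIs over both libraries) were that much lower and 2.08% higher. The median was -0.85 for the 8 and -0.03 for all genes tested. The genes were listed for this difference, so nothing further is read from the count. With each cell thinned to 5000 UMIs, Hmgcs1 also fell short of 1.5-fold and 6 remained.

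In the arch, the cKO and control libraries were close for the sterol genes. Sqle had a log2 ratio of 0.33 (0.11 to 0.54), Cyp51 0.10 (-0.11 to 0.29), Hmgcs1 -0.03 (-0.16 to 0.10), Insig1 -0.26 (-0.47 to -0.06) and Fdft1 -0.41 (-0.56 to -0.27), and Idi1 had 0.18 with an interval that just included 0. Scd1, at -0.83 (-1.04 to -0.63), was the 1 gene of the 8 at least 1.5-fold lower, 0 were higher, and Fasn stood at -0.30. Of the 12487 genes tested, 17.2% were lower and 8.27% higher by that much. The median of -0.14 for the 8 was near the -0.12 of all genes tested. Scaling by the median of ratios in place of total UMIs brought it to -0.05.

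Between regions, the control libraries differed and the cKO libraries did so less. In control smooth muscle, 7 of the 8 were at least 1.5-fold lower in the arch than in the descending aorta and 0 higher (9.76% and 5.96% of 12526 genes), with a median of -1.06 against -0.10 for all genes. Sqle had -1.19, Cyp51 -1.07, Idi1 -1.04, Insig1 -0.94, Hmgcs1 -0.80 and Fdft1 -0.25, while Fasn had -2.33 and Scd1 -2.16. In cKO smooth muscle, 0 of the 8 were lower or higher by 1.5-fold (18.7% and 7.04% of 11728 genes), and the median was -0.15 against -0.17 for all genes. Scaling by the median of ratios brought it to 0.00. The most distant was Fasn at -0.54 (-0.74 to -0.34), which passed 1.5-fold with cells gated on the share of Myh11 UMIs (-0.65), thinned to 5000 UMIs (-0.72) or kept when they passed several gates (-0.64). Both comparisons in which 7 genes were lower rest on the same control descending library, so they are not independent of each other. Subtracting the descending from the arch difference between genotypes gave 1.30 for Sqle, 0.99 for Cyp51, 0.90 for Idi1, 0.66 for Hmgcs1, 0.55 for Insig1 and -0.05 for Fdft1, and 2.01 for Scd1 and 1.79 for Fasn. The genes were chosen chiefly for the descending difference, which enters each of these values and favours values above 0. With 1 library per group these differences of differences were not tested.

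Beyond the 8, other enzymes of the cholesterol route were lower in cKO than in control descending smooth muscle, but not all of them. Of the 16 other sterol synthesis genes tested, 5 were at least 1.5-fold lower and 0 higher (2.96% and 2.08% of all genes), with a median of -0.36. Among these were Mvd, mevalonate diphosphate decarboxylase (-1.05, from 36 and 70 UMIs), Msmo1, a sterol methyl oxidase (-0.88; 24.7 against 45.5 CPM), Hsd17b7 (-0.64) and Fdps, farnesyl diphosphate synthase (-0.63; 42.4 against 65.5 CPM). Pmvk (0.12) and Ebp (0.08) had intervals that included 0. Of 11 other genes of sterol sensing and uptake, 1 was lower and 0 higher, and the median was -0.10. Srebf2, the gene of SREBP2, had -0.37 (-0.49 to -0.26) and Scap 0.06, and Mylip, a ubiquitin ligase that limits lipoprotein uptake, had 0.28 (0.04 to 0.51). Of 13 other fatty acid genes, 3 were lower: Thrsp (-1.69; 10.9 against 35.2 CPM), the elongase Elovl6 (-1.10) and Me1, malic enzyme (-0.59). Srebf1 had -0.05 (-0.21 to 0.11). Hsd17b7, Fdps, Srebf2, Me1 and Srebf1 were named after their values were seen.

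In the other comparisons more genes of the fatty acid list than of the sterol synthesis list passed 1.5-fold. In the arch, cKO against control, 1 of the 16 other sterol synthesis genes was lower (Ggps1, at -0.99, named after its value was seen) and 0 were higher, and among the highest were Hsd17b7 (0.53), Msmo1 (0.37; 30.9 against 23.9 CPM) and Soat1, which esterifies cholesterol (0.36). The lowest were Thrsp (-2.38), Apoe (-1.94), the desaturase Fads2 (-1.88; 9.07 against 33.5 CPM) and the sterol exporter Abca1 (-1.04), and 5 of 13 other fatty acid genes were lower, where 17.2% of all genes were lower and 8.27% higher. In control smooth muscle the arch was lower than the descending aorta for 6 of the 16 and for 7 of the 13 (9.76% of all genes), with Elovl6 at -1.48 and Thrsp at -1.28. Insig2 (0.50), the oxysterol receptor Nr1h3 (0.29; -0.02 to 0.62), Lpcat3 (0.26) and Apoe (1.61; 445 against 146 CPM) were at the other end. In cKO smooth muscle the arch had less Thrsp (-1.97), Fads2 (-1.96), Acacb (-1.77) and Acaca (-1.16), both acetyl-CoA carboxylases, and more Fdps (0.36), Hsd17b7 (0.46), Msmo1 (0.32) and the lysosomal sterol carrier Npc2 (0.49).

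**Figure D2:**
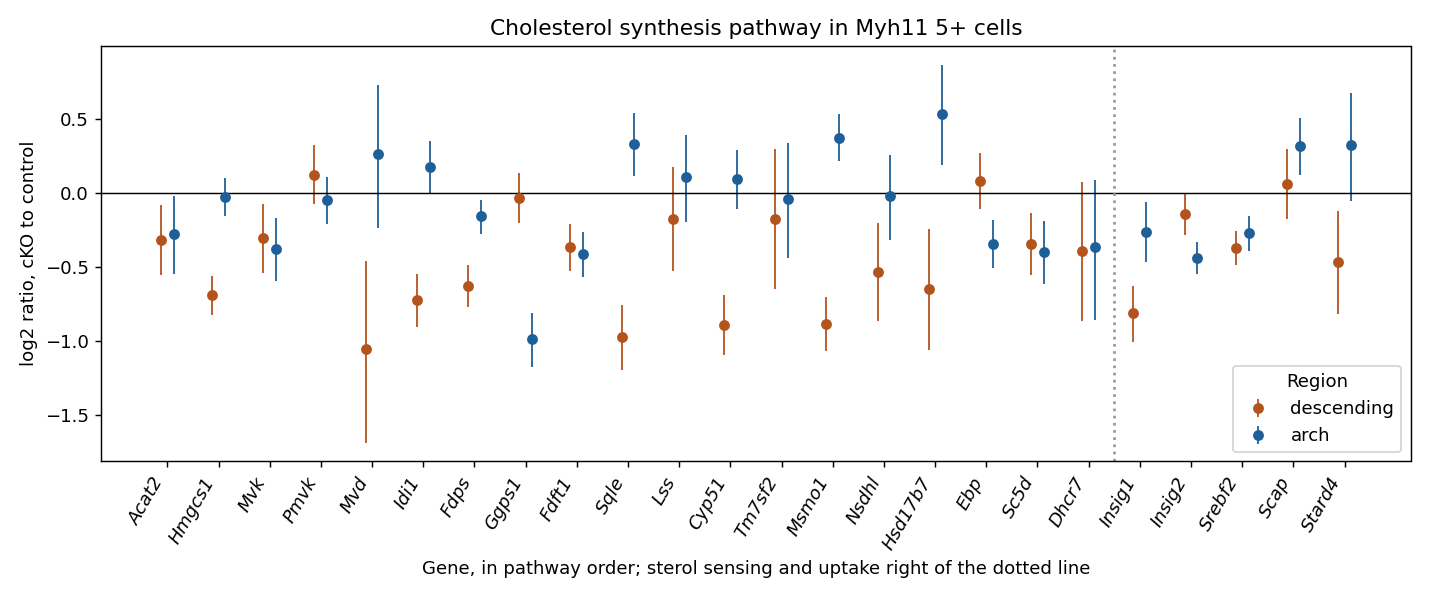
Log2 ratio of cKO to control in Myh11 5+ cells (vertical axis) for genes in the order of the cholesterol route, with sensing and uptake genes right of the dotted line; points are single libraries compared and lines are 95% counting intervals. In the descending aorta (orange) Sqle, Cyp51 and Msmo1 lie between -0.97 and -0.88, while in the arch (blue) the same 3 genes lie between 0.10 and 0.37.

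Clock and stress genes moved with some of these comparisons. Between control arch and control descending smooth muscle, the clock output gene Dbp had a log2 ratio of -5.20 (10.2 against 375 CPM), Nr1d2 -3.86 and Arntl 3.62. Between the arch libraries, cKO against control, Dbp had 4.17, Nr1d1 3.13 and Nfil3 -3.12, and between the cKO libraries, arch against descending, Per3 had -1.81, Hlf -1.21 and Dbp -1.21. In the descending pair the furthest of the 14 clock genes from 0 were Nfil3 (-0.81), Cry1 (0.67) and Npas2 (0.30), and Dbp had 0.18. The arch libraries thus differed from each other and from the descending ones in clock genes far more than the descending libraries did between themselves. In the descending pair, 7 of 15 immediate early genes, which dissociation can induce, were at least 1.5-fold lower in cKO (2.96% of all genes), led by Nr4a1 (-0.77), Fos (-0.66; 684 against 1078 CPM) and Jun (-0.64). The part of clock phase and of immediate early genes in the sterol gene levels was not tested.

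In fibroblasts the descending libraries lay within 1.5-fold of each other for the 6 sterol genes. In the fibroblast gate (at least 2 Pdgfra UMIs; 813 cKO and 651 control descending cells), the cKO to control ratio was 0.09 (-0.37 to 0.55) for Sqle, 0.30 (-0.08 to 0.68) for Idi1, -0.17 (-0.53 to 0.18) for Cyp51, -0.11 (-0.38 to 0.16) for Hmgcs1, 0.28 for Insig1 and -0.40 for Fdft1. Of the 8, Scd1 (-1.46) and Fasn (-1.84) were at least 1.5-fold lower and 0 higher, where 2.92% and 2.46% of 11020 genes were. The smooth muscle ratio minus the fibroblast ratio was -1.06 for Sqle, -1.03 for Idi1, -1.09 for Insig1, -0.72 for Cyp51, -0.58 for Hmgcs1 and 0.03 for Fdft1. These differences rest on the smooth muscle values for which the genes were chosen, and they were not tested across samples. In fibroblasts another library stood apart: Sqle had 3.98 CPM in the control arch against 12.1, 11.6 and 10.9 in the cKO arch, cKO descending and control descending libraries, and Idi1 had 8.46 against 20.1, 18.5 and 15.0. In the arch, cKO against control, fibroblasts had 1.59 (1.04 to 2.18) for Sqle, 1.25 for Idi1 and 1.20 for Cyp51, and 3 of the 8 were higher and 1, Scd1, lower, where 15.0% of genes were higher and 17.0% lower. In control fibroblasts 6 of the 8 were lower in the arch than in the descending aorta and 0 higher (6.44% and 6.73% of genes), among them Sqle (-1.45) and Cyp51 (-1.04).

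Leukocytes and other cell types did not share one order of libraries. Phagocytes (at least 2 Csf1r UMIs) of the cKO arch had 13.3 CPM of Sqle against 2.31 in the control arch (94 and 5 UMIs; a log2 ratio of 2.40, with an interval of 1.25 to 4.18) and 29.4 against 16.6 CPM of Cyp51, with 4 of the 8 higher and 2 lower (16.3% and 20.2% of genes). T cells went the other way in the arch, with 4.05 against 16.8 CPM of Sqle (-1.98; -3.36 to -0.94) and 19.2 against 50.5 CPM of Idi1 (-1.38), and of the 6 genes with at least 50 UMIs, which leaves out Sqle and Scd1, 3 were lower and 0 higher (34.3% and 16.3% of genes), namely Idi1, Cyp51 and Fdft1. The marker lists did not separate thymocytes from other T cells. In the descending pair, Sqle, Cyp51, Hmgcs1 and Idi1 had intervals that included 0 in phagocytes and in T cells, and 3 of 7 tested genes were lower and 0 higher in phagocytes (6.43% and 5.88% of genes), namely Insig1 (-0.60), Scd1 (-2.56) and Fasn (-2.32). In endothelial cells 4 of 7 were lower and 0 higher in the cKO descending library (5.37% and 4.38% of genes), with Cyp51 at -0.81 and Fdft1 at -0.95 beside Scd1 and Fasn. Endothelial cells had 3.21 to 4.50 CPM of Sqle in the 4 libraries, against 14.0 to 31.9 CPM in smooth muscle. Mesothelial cells had 1.51 CPM in the cKO and 2.00 CPM in the control descending library. Schwann cells, which build myelin lipid, had 225 and 384 CPM of Scd1 and 109 and 82.5 CPM of Hmgcs1 in the cKO and control descending libraries, from only 69 and 50 cells.

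**Figure D3:**
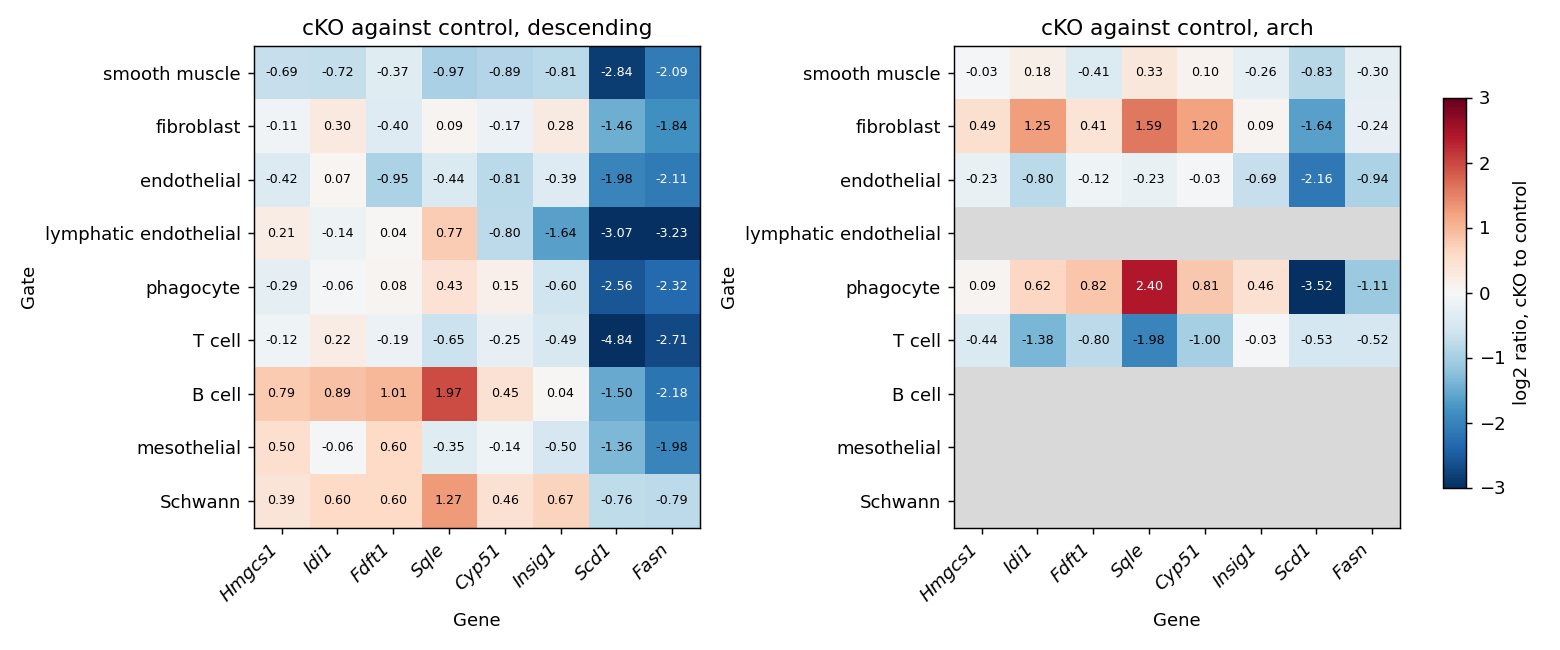
Log2 ratio of cKO to control (colour and printed value) for the 8 genes (columns) in each gated cell type (rows), in the descending aorta (left) and the arch (right); grey marks gates with under 50 cells in a library. In the descending aorta Sqle, Cyp51 and Hmgcs1 lie between -0.97 and -0.69 in smooth muscle and between -0.17 and 0.09 in fibroblasts, Fdft1 is alike in both (-0.37 and -0.40), and Scd1 and Fasn are below 0 in all 9 gates shown.

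Scd1 and Fasn differed from the sterol genes in that every gate of the control descending library with a value in another library had more of both than that gate in any other library. Scd1 had 241 CPM in T cells of that library against 5.57, 8.19 and 7.85 in T cells of the cKO arch, control arch and cKO descending libraries, and in phagocytes 176 against 1.56, 18.5 and 29.7 CPM. Fasn had 282 CPM in its T cells against 27.3, 39.2 and 42.6. Counted per cell, Scd1 gave 1.63 UMIs in smooth muscle, 2.08 in fibroblasts, 1.94 in phagocytes and 1.30 in T cells of the control descending library, and 4.02 in endothelial cells. In smooth muscle of the other 3 libraries it gave 0.197 to 0.403 UMIs per cell. In the control descending library B cells gave 2.38 and mesothelial cells 2.96 UMIs per cell, so the number per cell differed between its gates.

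Adipocyte RNA was also highest in the control descending library, but across libraries Scd1 did not follow it closely. That library held 49 gated adipocytes (at least 3 UMIs of Adipoq and Plin1), against 6, 5 and 9 in the cKO arch, control arch and cKO descending libraries. In the 49 cells Scd1 stood at 7772 CPM, Fasn at 4726, the adipokine Adipoq at 1043 and carbonic anhydrase Car3 at 10003. The summed level of the 8 adipocyte markers in the smooth muscle gate was 85.7 CPM in the control descending library, with 8 of 8 detected, and 4.70, 8.04 and 7.19 CPM in the other 3 in the same order, with 5, 8 and 7 detected. All 6 adipocyte markers tested were lower in cKO than in control descending smooth muscle, with a median of -3.58. Scd1 gave 0.777 UMIs per Car3 UMI in adipocytes and 4.29 in smooth muscle of the same library. In T cells this ratio was 3.60 and in phagocytes 3.25. In the control arch, phagocytes had 37.0 CPM of Car3 and 18.5 of Scd1, and lymphatic endothelial cells 28.4 and 6.85. Smooth muscle of the control descending library had 28.6 CPM of Car3 and 122.7 of Scd1. The source of the Scd1 RNA in these gates was not tested.

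Within the control descending library the sterol genes were at similar levels in smooth muscle cells with and without adipocyte RNA. The 704 smooth muscle cells with an adipocyte marker UMI had 31.1 CPM of Sqle, 37.7 of Cyp51, 43.0 of Idi1 and 77.9 of Hmgcs1, and the 449 cells with none had 33.1, 35.8, 44.7 and 69.2, with overlapping intervals. Scd1 had 132.5 CPM in the first and 107.4 in the second, and Fasn 150.1 and 121.7, with intervals that did not overlap. With all cells that held such a UMI left out of every library, 7 of the 8 were at least 1.5-fold lower in the cKO descending library, with a median of -0.80. A cell without a UMI of these sparse markers can hold other adipocyte RNA, so the removal need not have taken all of it out. The adipocytes had 24.7 CPM of Sqle and 28.8 of Cyp51, both below the level in smooth muscle of that library, but 625 of Insig1, 204 of Fdft1 and 127.5 of Hmgcs1. T cells of the same library had 7.42 CPM of Sqle and 14.8 of Cyp51. The part of free RNA in the levels of the 8 genes was not tested.

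**Figure D4:**
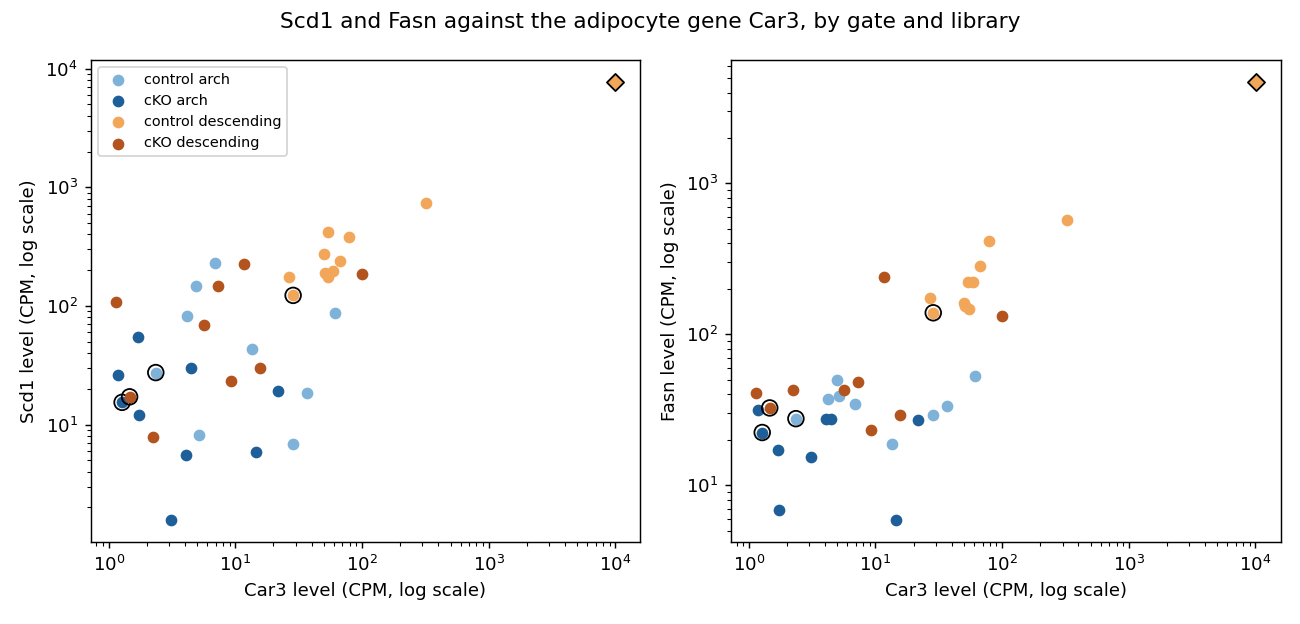
Scd1 (left) and Fasn (right) against the adipocyte gene Car3, in CPM on log axes, for each gate and library with at least 1 Car3 UMI; rings mark smooth muscle and the diamond the adipocyte gate. Every control descending point (light orange) lies at or above 122.7 CPM of Scd1 and 26.7 CPM of Car3.

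Within a library, cells of the smooth muscle gate that had more of one sterol gene tended slightly to have more of the others. To set depth aside, each cell was thinned to 5000 UMIs, which left 1030, 2979, 1209 and 998 cells (106, 233, 215 and 155 shallower ones were left out). At that depth a gene was seen in few cells. Sqle had a UMI in 8.25% of cells in the cKO arch, 6.51% in the control arch, 6.20% in the cKO descending and 12.8% in the control descending library, and in 16.7, 16.8, 14.1 and 28.4% of all gated cells without thinning. Over the 28 pairs of the 8 genes, the median Pearson r across cells was 0.064, 0.027, 0.054 and 0.070 in the same order. The 15 pairs of sterol genes had medians of 0.066, 0.037, 0.075 and 0.088, and 14, 15, 14 and 15 of them were above 0. The 12 pairs that join a sterol gene to Scd1 or Fasn had 0.053, 0.012, 0.009 and 0.020. Cells of a library share its free RNA and handling, counts this sparse hold r near 0, and values of this size are a description and not a finding.

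The closest pair was Sqle with Hmgcs1 in both arch libraries (r = 0.137 in the cKO library and 0.093 in the control library), Sqle with Cyp51 in the cKO descending library (0.152) and Cyp51 with Hmgcs1 in the control descending library (0.141). In the last, 61 cells had a UMI of both Cyp51 and Hmgcs1, where 42.5 would be counted if the genes were spread independently. The summed UMIs of the 6 sterol genes had a variance of 1.65, 1.37, 1.63 and 1.90 times their mean. That variance was 1.39, 1.21, 1.45 and 1.48 times the sum of the single genes' variances, a ratio that is 1 without co-variation. In the control descending library 16.5% of cells had 3 or more sterol gene UMIs, against 5.15, 6.65 and 6.37% in the other 3, and 36.0% had 0, against 53.5, 50.1 and 48.7%. The mean was 1.31 sterol gene UMIs per cell there against 0.721, 0.790 and 0.826. A higher mean by itself brings fewer cells with 0 and more with several, so these shares restate the level.

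Among the genes most like the 8 across smooth muscle cells were some others of the same route, but not all of it. For each of 7735 genes with a mean of at least 0.05 UMIs per thinned cell in every library, Pearson r of the log2(UMIs + 1) values with the summed 8 genes (for a member, the other 7) was averaged over the 4 libraries. The top 15 held Fdps (0.138), Sqle (0.136), Msmo1 (0.135), Hmgcs1 (0.126), Srebf2 (0.114) and Scd2 (0.114), a desaturase related to Scd1, and Idi1 (0.111), so 3 of the 15 were members. It also held Itgb1 and Itga8, which encode integrins, Malat1, a nuclear RNA, Eln, the gene of elastin, Col15a1, Col4a6 and Gm26917. The other members ranked 26 (Cyp51), 32 (Insig1), 97 (Scd1), 231 (Fasn) and 537 (Fdft1). At the low end were Myl6 (-0.150), Rpl27a (-0.146), Tagln, Rps24 and Rpl36, genes of the contractile apparatus and of ribosomal proteins. The median gene had 0.008 and the central 95% of genes lay between -0.054 and 0.056. Other genes of the cholesterol route lay within that range, among them Mvk (0.041), Pmvk (0.040), Ggps1 (0.014) and Ebp (0.0002). They were named after their values were seen, and the likeness did not hold for the whole route. The summed contractile genes had r of -0.107, -0.099, -0.073 and -0.057 with the summed sterol genes, and immediate early genes -0.022, 0.012, 0.047 and 0.028. The part of nuclear and ribosomal protein RNA content, which differs between cells, was not tested.

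**Figure D5:**
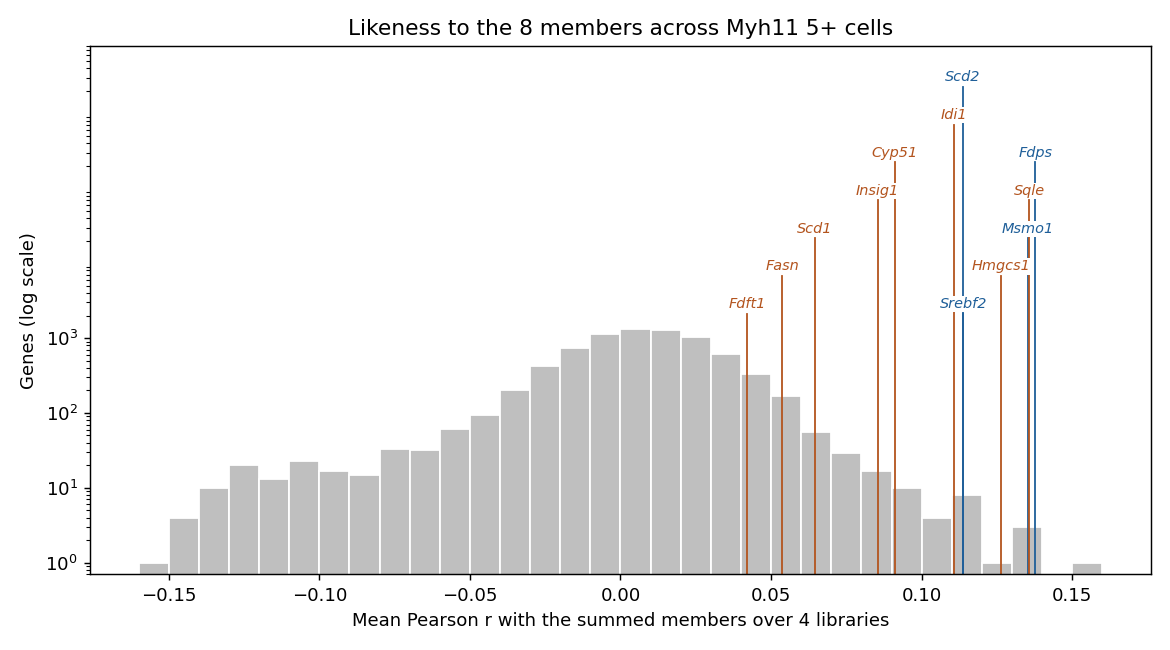
Number of genes (vertical axis, log scale) by mean Pearson r with the summed 8 genes across Myh11 5+ cells of the 4 libraries (horizontal axis); lines mark members (orange) and other genes of the route (blue). Of the genes marked, Fdps, at 0.138, lies furthest right, and Fdft1 and Fasn lie within the central 95% of genes.

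In the cKO arch library a feature named RFP, taken here for the reporter, was counted, and it allowed cells within 1 library to be compared. Among smooth muscle cells, 351 had at least 16 RFP UMIs, 668 had fewer than 8, and 117 lay between and were left out. All 8 genes had intervals that included 0, from -0.34 (-0.77 to 0.08) for Sqle to -0.13 (-0.41 to 0.14) for Hmgcs1, and all 8 values were below 0. Of the other genes of the route, Fdps had -0.41 (-0.67 to -0.16), Lss -0.82 (-1.57 to -0.16) and Me1 -0.54 (-0.78 to -0.31), while Ebp had 0.46 (0.13 to 0.78) and Acly 0.36 (0.08 to 0.63). These 5 were named after their values were seen. Whether RFP-high cells had lost Smad4 was not tested here, and cells that differ in RFP may also differ in origin.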

How the data were processed

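Single cells of 4 mouse aorta libraries were analysed from the deposited whole-number UMI counts per gene and barcode, on which the authors' matrices carry no normalization. Per the submitters' processing notes the reads were aligned to mm10 and counted by Cell Ranger 6.1.1. The version per the file headers is 6.1.2. No release of the annotation is given in the sources used here. The cKO arch matrix lists 28693 features and the others 32285, so a gene whose model differs between annotations can differ in count. The 8 genes and all gene lists, gates and tests were chosen with earlier results of these data known.

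Cells with at least 500 genes and under 10% mitochondrial UMIs were kept. Each cell type was gated by UMIs of a few marker genes, and cells that passed several gates (3.89 to 14.1% of kept cells) or none were left out; no doublet caller was run. UMIs were summed per gate and library and divided by their total (CPM), with exact Poisson intervals and exact conditional intervals for ratios (95%). Log2 ratios have a prior of 0.5 UMIs and need at least 50 UMIs over both libraries to enter a count, and gates need 50 cells. Correlations across cells were computed on counts thinned to 5000 UMIs with a fixed seed. With 1 library per group no test was possible. The named genes are all 8 members, the 4 highest and 4 lowest other pathway genes per smooth muscle comparison with at least 100 UMIs, the 15 most and 5 least like genes, and the 3 clock and 3 immediate early genes furthest from 0; values of some genes that the rule names are not reported here. The calculations were tested on simulated data. Python 3.11.15, numpy 2.4.6, pandas 2.3.3, scipy 1.17.1 and matplotlib 3.10.9 were used, and promoter sequences and gene positions came from RefSeq tables of GRCm38.p6.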

Additional observations from a re-analysis of the deposited data

Results flagged for a closer look

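The Sqle difference between cKO and control smooth muscle had opposite signs in the arch, at 0.33 (0.11 to 0.54), and in the descending aorta, at -0.97 (-1.19 to -0.75) on the log2 scale, and the counting intervals lay on either side of 0. The arch value exceeded the descending value by 1.30. Sqle is one of the genes chosen chiefly for the descending difference, which favours a gap of this direction. With 1 library per genotype and region this difference was not tested.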

How the results depend on the processing

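No paired analysis was possible because each group is 1 library, and for the same reason no replicate could be left out. Other scaling, cell filters, Myh11 gates, thinning and left-out members were tried. Of the values, 43 of 44 medians, 61 of 64 counts and 27 of 28 correlations stayed within counting error or within 1.5 times of that reported. Medians near 0 could change sign within these limits. The arch median of cKO against control went from -0.14 to 0.035 with the 6 sterol genes only. The cKO median of arch against descending went from -0.15 to 0.004 with median-of-ratios scaling. The other medians stayed below 0, and the median correlations above 0, in every setting. For cKO against control in the descending aorta the median ran from -0.92 to -0.77 and the count of lower genes from 6 to 7. In the arch the median ran from -0.28 to 0.035, the last with the 6 sterol genes only, an alternative chosen after seeing the data, as were the removal of cells with adipocyte marker UMIs and a second random thinning. For arch against descending the median ran from -1.08 to -0.94 in controls and from -0.28 to 0.00 in cKO. In cKO the count of lower genes went from 0 to 1, namely Fasn, with cells gated on the share of Myh11 UMIs, with thinning to 5000 UMIs and with cells of several gates kept. Without thinning, the counts of each cell were scaled to 5000 UMIs, and cells under 5000 UMIs were included. The median pair correlation in the control descending library was then 0.143 (1153 cells) against 0.070 (998 cells). Fdft1 was under 1.5-fold in every setting of the descending and of the control arch against descending comparison. Sqle, with 5 UMIs in control arch phagocytes, shows how depth limits the smaller gates.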

Other observations

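Genes of the oxysterol receptor (LXR) pathway and of sterol export, which respond when sterol is plentiful, were also summed in smooth muscle. In the descending aorta 1 of 6 tested genes was at least 1.5-fold lower in cKO than in control (2.96% of all genes), namely Apoe, which carries exported lipid, at 95.4 against 146 CPM (-0.61; -0.70 to -0.51). Abca1, the sterol exporter, had 14.8 against 14.6 CPM there (0.02; -0.25 to 0.29). In the arch 4 of 7 were lower in cKO (17.2% of all genes), with Apoe at 116 against 445 CPM, Abca1 at 7.12 against 14.7 CPM and Lpcat3 at 12.5 against 23.6 CPM. Within the cKO arch library Apoe was higher in cells with at least 16 RFP UMIs than in cells with fewer than 8 (2.26; 2.10 to 2.41), as were the immediate early genes Nr4a1 (1.95) and Fos (0.85). Apoe, Abca1, Lpcat3, Nr4a1 and Fos were chosen here after their values were seen.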
